A study of Mus musculus with 9 samples.

Results

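The genes described here encode the proteasome and the factors that build, activate or inhibit it. They were chosen by gene symbol, as every symbol of the Psma, Psmb, Psmc, Psmd, Psme, Psmf and Psmg series together with Pomp, leaving out the inducible subunits Psmb8, Psmb9 and Psmb10. A further condition was a symbol that occurs once and a mean of 1 FPKM or more over all 9 libraries, where FPKM is the number of fragments of a gene, corrected for transcript length and for the size of the library. This rule gave 28 genes of the 6965 that passed the same filter. All measurements come from ROC6, a murine oral squamous cell cancer line. The 3 libraries of the control carry the label WT Control, 3 libraries carry a CSMD3 knockout made with guide 1, and 3 carry a CSMD3 knockout made with guide 2. The series describes the knockouts as clone 1 and clone 2, so each knockout group appears to be 1 clone and a difference between clones cannot be told apart from an effect of the knockout. The labels do not say whether the replicates were separate cultures. The p-values therefore reflect only how these libraries spread, and that spread may be technical.

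The proteasome degrades proteins that carry ubiquitin chains. Its barrel-shaped core particle has outer rings of alpha subunits, which gate the entrance, and inner rings of beta subunits, of which PSMB5, PSMB6 and PSMB7 carry the active sites. A regulatory particle caps the core: its base holds a ring of ATPases, the Psmc products, which unfold the substrate, and its other subunits, the Psmd products, bind ubiquitin chains and cut them off. Dedicated chaperones assemble core and cap, and alternative activators of the Psme family can take the place of the cap. In many cells the subunit genes are transcribed together under NFE2L1, a transcription factor that binds antioxidant response elements, and interferon swaps the active beta subunits for inducible ones.

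Promoters were read because the members are known for joint transcription, and 4 genes were chosen on which the results below turn. Psmc2 and Psmc5 are the ATPase genes with the largest changes, in opposite directions and each in another knockout. Psmd9 was lower in both knockouts, and Psmb5, a catalytic subunit, was called in neither. Sequences are from RefSeq on GRCm38.p6, matched by symbol. The authors' build is not given in the sources used here. Shown are the 250 bases before each annotated start, 5′ to 3′ on the gene's strand: Psmc2 at chr5:21785025-21785274 and, for a second start, chr5:21786497-21786746 (plus strand), Psmc5 at chr11:106255935-106256184 (plus strand), Psmd9 at chr5:123227940-123228189 (plus strand) and Psmb5 at chr14:54617996-54618245 (minus strand). Capitals mark TGANNNNGC, a loose form of the core of the antioxidant response element, and CCAAT, the motif of the factor NF-Y, on either strand. N stands for any base.
Psmc2, first start: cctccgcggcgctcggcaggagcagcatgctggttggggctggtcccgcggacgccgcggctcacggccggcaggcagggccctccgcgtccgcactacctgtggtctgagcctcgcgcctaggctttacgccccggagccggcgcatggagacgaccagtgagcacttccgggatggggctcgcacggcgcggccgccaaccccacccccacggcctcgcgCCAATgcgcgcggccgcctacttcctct
Psmc2, second start: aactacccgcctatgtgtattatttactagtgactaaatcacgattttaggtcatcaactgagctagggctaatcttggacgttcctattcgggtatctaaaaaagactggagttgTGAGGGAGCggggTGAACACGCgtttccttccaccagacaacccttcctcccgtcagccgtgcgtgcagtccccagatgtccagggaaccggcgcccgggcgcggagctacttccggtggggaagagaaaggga
Psmc5: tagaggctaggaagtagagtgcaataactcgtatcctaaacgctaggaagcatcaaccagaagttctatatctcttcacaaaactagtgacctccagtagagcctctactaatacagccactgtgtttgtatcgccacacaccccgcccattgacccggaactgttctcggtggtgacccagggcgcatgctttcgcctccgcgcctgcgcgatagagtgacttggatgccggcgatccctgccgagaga
Psmd9: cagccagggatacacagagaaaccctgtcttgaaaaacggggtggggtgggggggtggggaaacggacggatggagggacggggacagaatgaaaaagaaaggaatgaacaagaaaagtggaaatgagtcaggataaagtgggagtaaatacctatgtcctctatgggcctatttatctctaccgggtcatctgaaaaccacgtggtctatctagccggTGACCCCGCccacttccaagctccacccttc
Psmb5: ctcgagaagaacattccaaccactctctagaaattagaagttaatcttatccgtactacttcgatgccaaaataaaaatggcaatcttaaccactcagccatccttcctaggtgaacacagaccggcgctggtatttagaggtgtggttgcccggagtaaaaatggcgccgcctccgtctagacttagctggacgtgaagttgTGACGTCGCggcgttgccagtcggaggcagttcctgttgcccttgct
The windows searched run from 250 bases before to 50 bases after the start, and 23 members matched a window. Psmb1, Psmb2, Psmb7, Psmc3 and Psmg2 are named only. Psmc2 held CCAAT 28 bases before its first start, and TGANNNNGC 134 and 121 bases before its second. Psmd9 held TGANNNNGC 31 bases before the start. Psmb5 held it 47 bases before the start and again at base 42 after it, outside the stretch shown, and the Psmc5 window held neither motif. No capitals of one motif overlap those of the other in these stretches. Of the 26 windows of members 46.2% held TGANNNNGC and 30.8% held CCAAT, against 41.3% and 37.4% of all 32851 promoter windows of the same length. By gene, TGANNNNGC lay in 8 of the 14 members called lower for the mean of both knockouts and in 0 of the 4 called higher. It also lay in 2 of the 5 not called. CCAAT lay in 4 of those called lower, 1 of those called higher and 3 of those not called. Among all tested genes with a window TGANNNNGC lay in 48.3% of those called lower and 44.6% of those called higher. For CCAAT these shares were 44% and 40.8%. These are matches of letters, with no measurement of binding.

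Over all uniquely named genes the FPKM values summed to between 162625 and 168620 per library. Read depth is unknown, since FPKM removes the read total. Across genes, log2 values of 2 libraries correlated at 0.991 to 0.993 within a group and at 0.893 to 0.950 between groups. The targeted gene, Csmd3, was not analysed here, and the knockout labels could not be checked with it. Of 17 squamous keratinocyte markers 9 had a row and 4 were tested. Perp, a desmosomal membrane protein, stood at 79.1 ± 3.84 FPKM (SD, n = 3) in control libraries, whereas Krt16 and Krt17 were at or near 0 in every group. Few squamous markers could thus be read, and of the 4 tested 3 rose and 1 fell for the mean of both knockouts. Over all tested genes 37.8% were called higher and 43.3% lower in that comparison. With guide 1 alone 3 of the 4 rose and 1 fell, beside 30.2% and 37.9% of all tested genes. With guide 2 alone 1 rose and 1 fell, beside 31.9% and 33.5%. Cdh3, or P-cadherin, went from 14.8 ± 0.667 FPKM to 0.369 ± 0.105 and 0.492 ± 0.0474 with guide 1 and guide 2, and Itga6, an integrin of hemidesmosomes, from 2.23 ± 0.0314 to 9.49 ± 0.373 and 2.34 ± 0.262. Summed squamous markers ranged from 94.5 to 101 FPKM in control libraries, 113 to 122 with guide 1 and 85.8 to 90.5 with guide 2. Of 10 fibroblast markers 3 had a row, with sums of 3.70 to 3.998 FPKM in control libraries, 8.81 to 12.2 with guide 1 and 13.8 to 14.6 with guide 2, and Col1a2 near 0 in the control and guide 1. The 2 that were tested, Twist2 and Postn, both rose for the mean, Postn to 7.83 ± 0.5895 FPKM with guide 2. Of 8 leukocyte markers 2 had a row, with sums of 0.473 to 0.875, 1.20 to 1.54 and 1.81 to 2.67 FPKM in the same order, of which Cd68 was tested and rose, and Lyz2 was listed at 0 in every control library. Of 5 endothelial markers 2 had a row and none was tested, with sums of at most 0.714 FPKM. The part of these markers in the results below was not tested.

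In 15441 of the 15446 uniquely named rows, and in 28 of 28 members, both knockout means were above, or both below, the control mean. The table's name speaks of common DEGs, or differentially expressed genes, of knockout against control. Shares over all tested genes are thus shares of the rows of this table, not of every expressed gene. A direction common to both knockouts is therefore a property of the rows, and these rows cannot show how many subunits moved in opposite directions in the 2 knockouts. Of 46 symbols of mouse proteasome subunits, assembly factors and activators, 28 had a row. Psma1, Psma4, Psma5, Psma8, Psmb3, Psmb4, Psmb6, Psmd3, Psmd4, Psmd5, Psmd7, Psmd8, Psmd11, Psmd12, Psme3, Psmg1, Psmg3 and Psmg4 were not analysed here. Psmb11, the thymus subunit, had a row at a mean of 0.0221 FPKM and the pseudogene Psmb7-ps2 one at 0.191 FPKM. Both fell below the filter, and the member nearest above it was Psmf1 at 5.85 FPKM. The remaining 27 symbols and Psme2b make up the 28 members.

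The proteasome genes differed from the control in both directions, more of them downward, and mostly by small amounts. With guide 1, 15 members fell and 1 rose at a limma adjusted p under 0.05, and 12 did not pass. Over all tested genes 68.1% passed, 37.9% lower and 30.2% higher. With guide 2, 14 members fell and 4 rose, and 10 did not pass, beside 65.4% of all genes, 33.5% lower and 31.9% higher. For the mean of both knockouts 19 members fell and 4 rose, and 81.1% of all tested genes passed, 43.3% lower and 37.8% higher. The single rise with guide 1 became 3 after either rescaling of the libraries, and higher calls were then 18.8% (quantile normalization) or 20% (trimmed mean) of the called members in place of 6.25%. Over all genes called with guide 1 that share was 48.1% or 49.5% in place of 44.4%. The share of members called, 82.1%, was thus near that of all genes, whereas members called lower made up 67.9% of the members against 43.3% of all genes. The median log2 difference of the members was -0.16 with guide 1, -0.18 with guide 2 and -0.18 for the mean, beside -0.04, -0.03 and -0.08 over all tested genes. A gene can pass the test of the mean on 1 knockout alone. When the 6 knockout libraries formed 1 group, whose spread then includes the gap between knockouts, 11 members fell and 2 rose, beside 52.3% of all tested genes called, and Psma7, Psmb1, Psmb2, Psmc2, Psmc4, Psmc5, Psmc6, Psmd10, Psmd13 and Psme4 no longer passed. Lower with each guide were 9 members, Psmc3, Psmd14, Psmd6, Psmd9, Pomp, Psmg2, Psme1, Psme2 and Psme2b, and higher with each guide was Psmd2, where 26.2% and 22.6% of all genes were. All 6 knockout libraries lay beyond all 3 controls in 14 members, 3 higher and 11 lower, where 53.7% of all tested genes did so, 24.7% higher and 29% lower. The guide 1 libraries alone lay beyond the controls in 18 members, beside 71.9% of all genes, and the guide 2 libraries in 21, beside 68.6%. No member changed by 1 log2 unit or more in the mean, where 8.51% of all genes did. Single differences ran from -1.20 log2 units for Psmg2 with guide 1 to 0.54 for Psmc5 with guide 2.

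**Figure D1:**
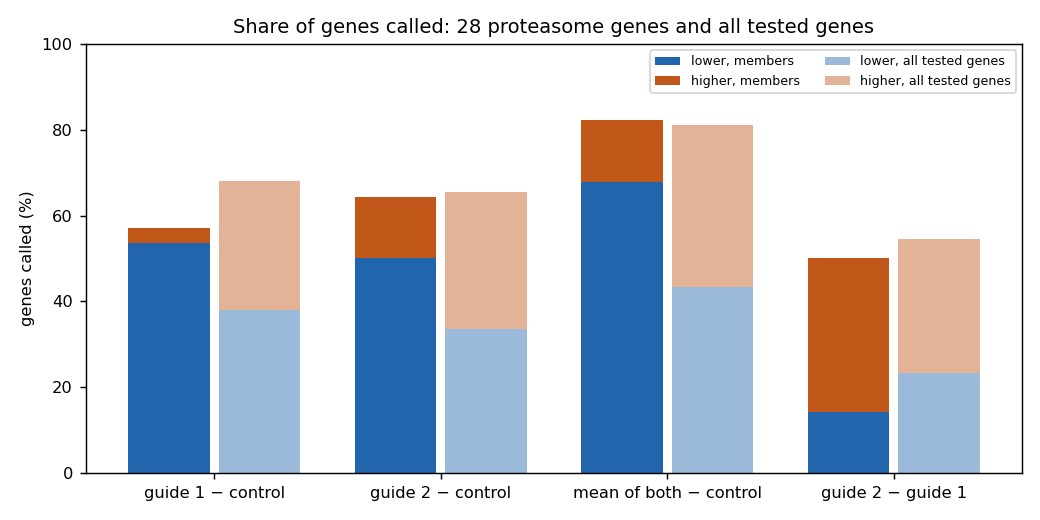
Bars show the percent of genes called higher (orange) or lower (blue) at a limma adjusted p under 0.05 among the 28 proteasome genes (dark) and all 6965 tested genes (light) in each comparison. For the mean of both knockouts, 67.9% of members and 43.3% of all genes were called lower.

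**Figure D2:**
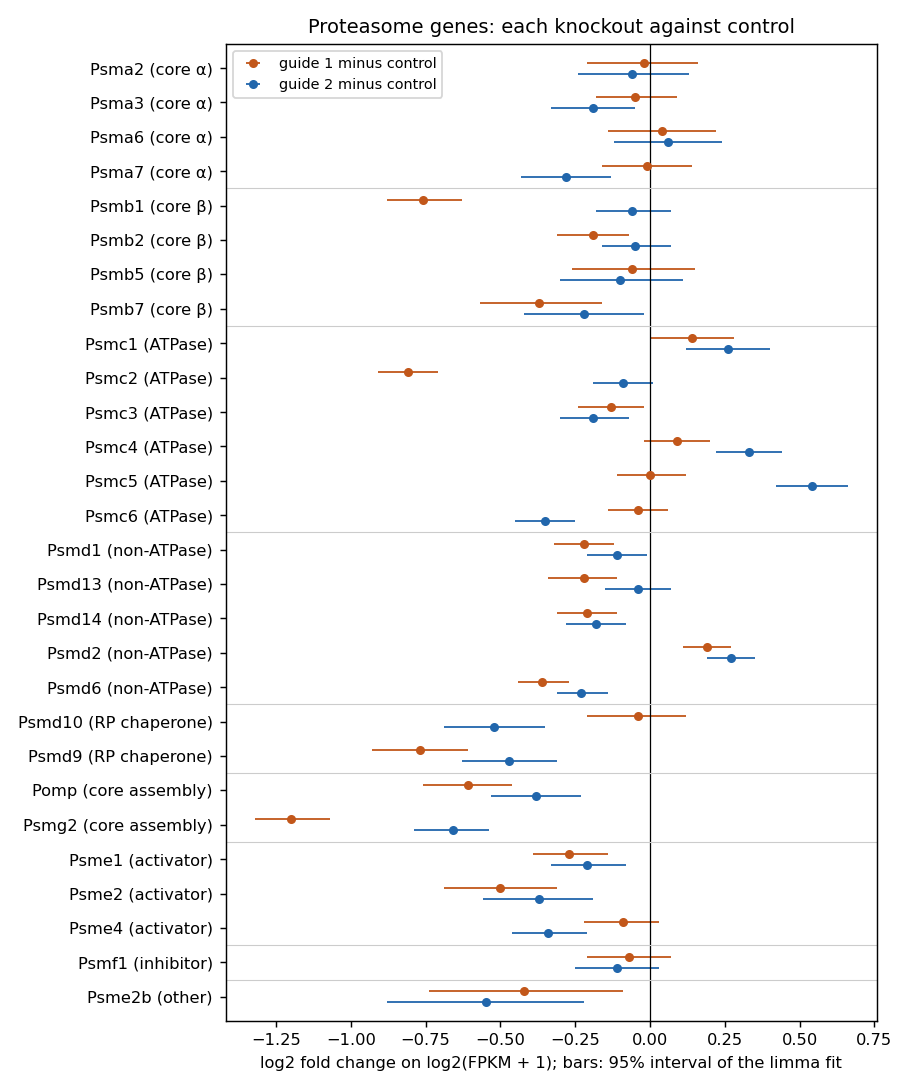
Points show the log2 fold change of each member on the log2(FPKM + 1) scale with guide 1 (orange) and guide 2 (blue) against the same 3 controls, and bars show 95% intervals of the fit, with members grouped by role. Psmg2 lies farthest to the left with guide 1 and Psmc5 farthest to the right with guide 2.

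The alpha subunits of the core were close to the control with guide 1. Of the 4 measured, 0 passed the limma test with guide 1, also at an unadjusted p under 0.05, and 2, Psma7 and Psma3, fell with guide 2. Of all tested genes 68.1% passed with guide 1, and 33.5% fell with guide 2. Psma7, which sits in the outer ring, stood at 58.8, 63.5 and 64.3 FPKM in control libraries, 64.8, 61.2 and 59.0 with guide 1 and 56.3, 50.2 and 47.1 with guide 2. All guide 2 libraries lay below all controls, and guide 1 overlapped the control. The log2 fold change was -0.28 with guide 2 (SE 0.0681, limma adjusted p = 0.00446) and -0.01 with guide 1 (limma adjusted p = 0.881). Psma3, another outer-ring subunit, stood at 23.0, 25.7 and 25.7 FPKM in control libraries, 24.55, 24.8 and 22.7 with guide 1 and 23.0, 20.7 and 21.3 with guide 2. Its fold change with guide 2, -0.19 (limma adjusted p = 0.0198), was lost without control replicate 2 (-0.16, limma adjusted p = 0.071) or 3 (-0.16, adjusted p = 0.0599), or without guide 2 replicate 2 (-0.16, adjusted p = 0.0758) or 3 (-0.18, adjusted p = 0.0586), and also under trimmed mean rescaling (-0.17, adjusted p = 0.0508). Psma2 and Psma6 were called with neither knockout, and the 95% intervals of their log2 differences were -0.21 to 0.16 and -0.14 to 0.22 with guide 1 and -0.24 to 0.13 and -0.12 to 0.24 with guide 2.

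The beta subunits fell with guide 1 in 3 of 4 cases and with guide 2 in 0 of 4 (limma, with 1 of the 4, Psmb7, at an unadjusted p under 0.05). Over all tested genes 37.9% were called lower with guide 1 and 33.5% with guide 2. The count for guide 2 rests on its replicate 1, since without that library 3 of 4 passed: Psmb2 at -0.105 (limma adjusted p = 0.0487), and Psmb5 and Psmb7 at values given below. Psmb1, a non-catalytic subunit, had the largest change. It stood at 62.2, 62.4 and 58.6 FPKM in control libraries, 36.9, 36.4 and 33.9 with guide 1 and 62.7, 57.8 and 55.4 with guide 2. The guide 1 libraries lay far below the rest, and guide 2 overlapped the control. This is a log2 fold change of -0.76 with guide 1 (SE 0.0561, limma adjusted p = 8.15e-07) and -0.06 with guide 2 (limma adjusted p = 0.374). Psmb7, which carries the trypsin-like site, was at 51.1, 51.3 and 53.7 FPKM in control libraries, 44.3, 38.6 and 37.7 with guide 1 and 52.1, 40.9 and 41.5 with guide 2. It fell with guide 1 (log2 -0.37, limma adjusted p = 0.00457), and with guide 2 its first library reached into the control range while the other two lay below it (log2 -0.22, limma adjusted p = 0.0553). Without guide 2 replicate 1 that change passed at -0.33 (limma adjusted p = 0.00239), and without guide 1 replicate 1 at -0.22 (limma adjusted p = 0.0443). Psmb5, which carries the chymotrypsin-like site targeted by bortezomib, had the highest control mean of all members. It was at 146, 149 and 159 FPKM in control libraries, 156, 148 and 134 with guide 1 and 166, 133 and 128.5 with guide 2, and the groups overlapped. Its log2 difference was -0.06 (95% interval -0.26 to 0.15) with guide 1 and -0.10 (-0.30 to 0.11) with guide 2. Neither passed, but without guide 2 replicate 1, the highest library, the guide 2 value was -0.21 (limma adjusted p = 0.0201) and the value for the mean -0.13 (adjusted p = 0.0424). Psmb2 fell from 90.95 ± 1.119 to 79.6 ± 1.8 FPKM with guide 1 (log2 -0.19, limma adjusted p = 0.00897), and stood at 88.3 ± 6.65 with guide 2. The guide 1 call was lost after trimmed mean rescaling (-0.14, limma adjusted p = 0.0641).

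Summed over the 8 measured core subunits, FPKM was 528, 545 and 559.7 in the control libraries, 519, 491 and 459 with guide 1 and 569.5, 489 and 471 with guide 2. The guide 1 libraries lay below all controls, and guide 2 overlapped them through its first library. After trimmed mean rescaling guide 1 overlapped the control too, with 528, 509 and 463 against 513, 538 and 556 FPKM. In guide 1, replicate 1 was the highest of the 3 libraries in 22 of 28 members, and in guide 2 replicate 1 was the highest in 21 of 28. Over all tested genes these libraries were the highest in 36.4% and 29.6%. Replicate 1 of each knockout was thus high across most members at once.

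**Figure D3:**
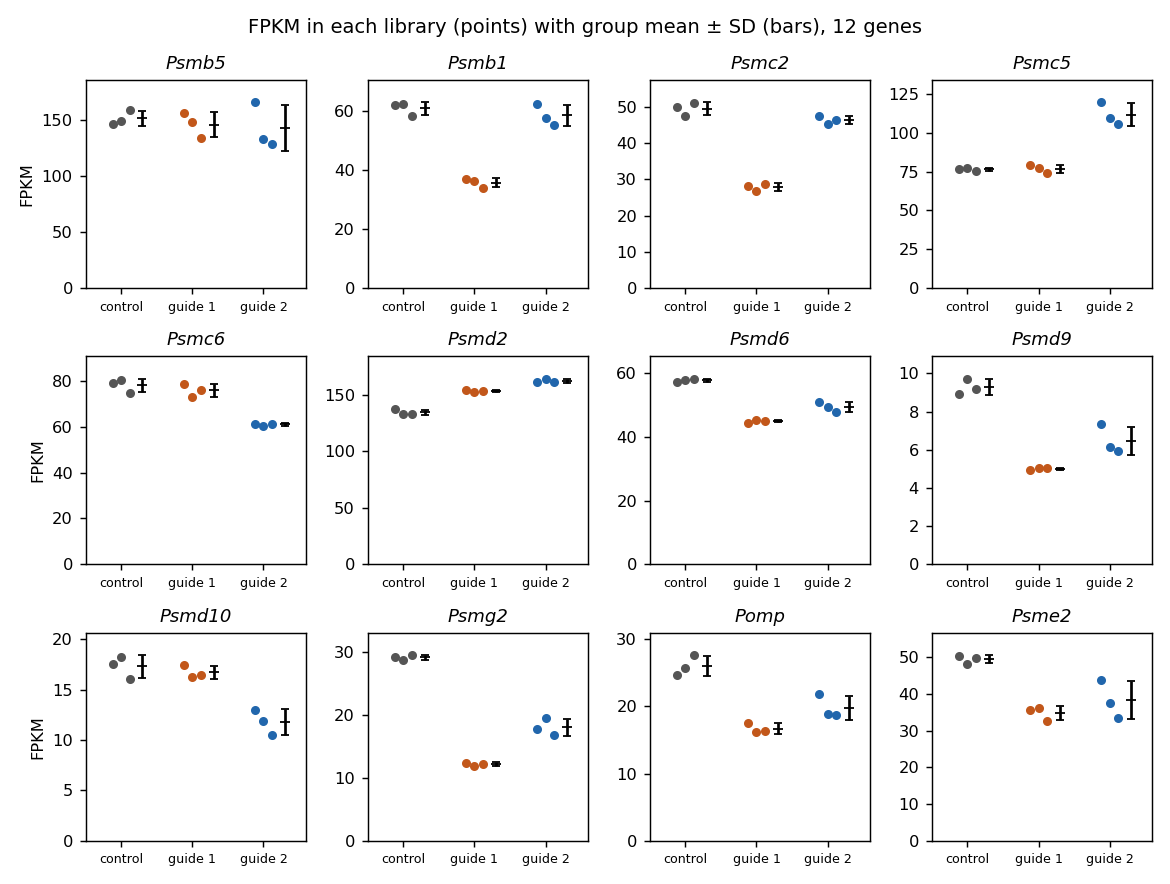
Points show FPKM in each library of the control (grey), guide 1 (orange) and guide 2 (blue) for 12 members, with the group mean and SD as bars and every axis starting at 0. Psmb1 and Psmc2 are low in the 3 guide 1 libraries, Psmc6 and Psmd10 are low and Psmc5 high in the 3 guide 2 libraries, and Psmb5 overlaps between groups.

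The 6 ATPases of the regulatory particle diverged from one another. All 6 were called for the mean of both knockouts, 3 higher and 3 lower, beside 81.1% of all tested genes. Of the 6 ATPases, Psmc1 and Psmc3 passed with the 6 knockout libraries as 1 group. With guide 1 alone 2 fell and 0 rose (limma, 0 also at an unadjusted p under 0.05), and with guide 2 alone 2 fell and 3 rose. Over all tested genes 37.9% fell and 30.2% rose with guide 1, and 33.5% and 31.9% with guide 2. Psmc2, also named Rpt1, stood at 49.9, 47.55 and 51.2 FPKM in control libraries, 28.1, 26.65 and 28.7 with guide 1 and 47.4, 45.4 and 46.5 with guide 2. The guide 1 libraries were far below the others. The log2 fold change was -0.81 with guide 1 (SE 0.0463, limma adjusted p = 1.17e-07) and -0.09 with guide 2, where it missed the threshold (limma adjusted p = 0.109). Psmc5, or Rpt6, was high with guide 2, at 76.5, 77.4 and 75.5 FPKM in control libraries, 79.4, 77.0 and 73.9 with guide 1 and 119.9, 109.6 and 106 with guide 2. Every guide 2 library exceeded every other library, and guide 1 overlapped the control. Its fold change was 0.54 with guide 2 (SE 0.0523, limma adjusted p = 7.76e-06) and 0.00 with guide 1 (95% interval -0.11 to 0.12). Psmc6, or Rpt4, was low with guide 2 only: 78.9, 80.45 and 74.8 FPKM in control libraries, 78.8, 73.1 and 76.0 with guide 1 and 61.3, 60.35 and 61.3 with guide 2. It fell by 0.35 log2 units with guide 2 (limma adjusted p = 5.46e-05), and the difference between the knockouts passed as well (log2 -0.31, limma adjusted p = 0.000185).

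Psmc4, or Rpt3, and Psmc1, or Rpt2, whose tail helps open the gate of the core, rose with guide 2. Psmc4 rose from 57.7 ± 1.93 to 72.7 ± 3.88 FPKM (log2 0.33, limma adjusted p = 0.000209), and Psmc1 from 64.7 ± 1.9 to 77.85 ± 7.795 FPKM (log2 0.26, limma adjusted p = 0.00503). With guide 1 their differences of 0.09 and 0.14 did not pass, although all guide 1 libraries lay above all controls for both genes. After trimmed mean rescaling they passed at 0.14 (limma adjusted p = 0.0358) and 0.19 (adjusted p = 0.041). They also passed under quantile normalization, at 0.138 (limma adjusted p = 0.00747) and 0.191 (adjusted p = 0.00883). Psmc1 passed at 0.14 without guide 2 replicate 1 (limma adjusted p = 0.0125) and with only the libraries compared (adjusted p = 0.0222). Psmc3, or Rpt5, was lower in both, at 102.5 ± 0.883 FPKM in control libraries, 93.75 ± 5.59 with guide 1 and 89.9 ± 3.62 with guide 2. The guide 1 call (log2 -0.13, limma adjusted p = 0.0437) was lost in 12 of 18 alternatives, among them the omission of guide 1 replicate 2 (-0.14, adjusted p = 0.0619) or 3 (-0.08, adjusted p = 0.179), guide 2 replicate 2 (-0.13, adjusted p = 0.0626), or control replicate 1 (-0.12, adjusted p = 0.105), 2 (-0.14, adjusted p = 0.078) or 3 (-0.13, adjusted p = 0.0683).

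Since 1 copy of each ATPase enters a ring, their FPKM were also set against the sum of the 6, a scale on which library totals cancel. Psmc2 made up 11.6, 11.1 and 11.96% of that sum in the control libraries, 6.67, 6.59 and 7.25% with guide 1 and 9.75, 10.1 and 10.5% with guide 2. The 3 groups did not overlap. Psmc5 made up 17.7, 18.1 and 17.6% in control libraries, 18.8, 19.1 and 18.7% with guide 1 and 24.7, 24.3 and 23.9% with guide 2, again without overlap. Shares of 1 sum are tied to one another: the FPKM of Psmc5 itself overlapped between guide 1 and the control, while that of Psmc2 in the same sum was lower. Psmc6 held 18.2 ± 0.681% (SD, n = 3) in control libraries, 18.65 ± 0.56% with guide 1 and 13.3 ± 0.6415% with guide 2, and Psmc3 23.9 ± 0.0897%, 23.0 ± 0.788% and 19.6 ± 0.244%. The ratio of the most to the least abundant ATPase transcript was 2.07 ± 0.0704 in control libraries, 3.375 ± 0.285 with guide 1 and 2.405 ± 0.131 with guide 2. The summed FPKM of the 6 was 429 ± 2.13, 407 ± 13.2 and 459.6 ± 23.5 in the same order. These shares are given as values with no test, and they describe transcripts, not protein.

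**Figure D4:**
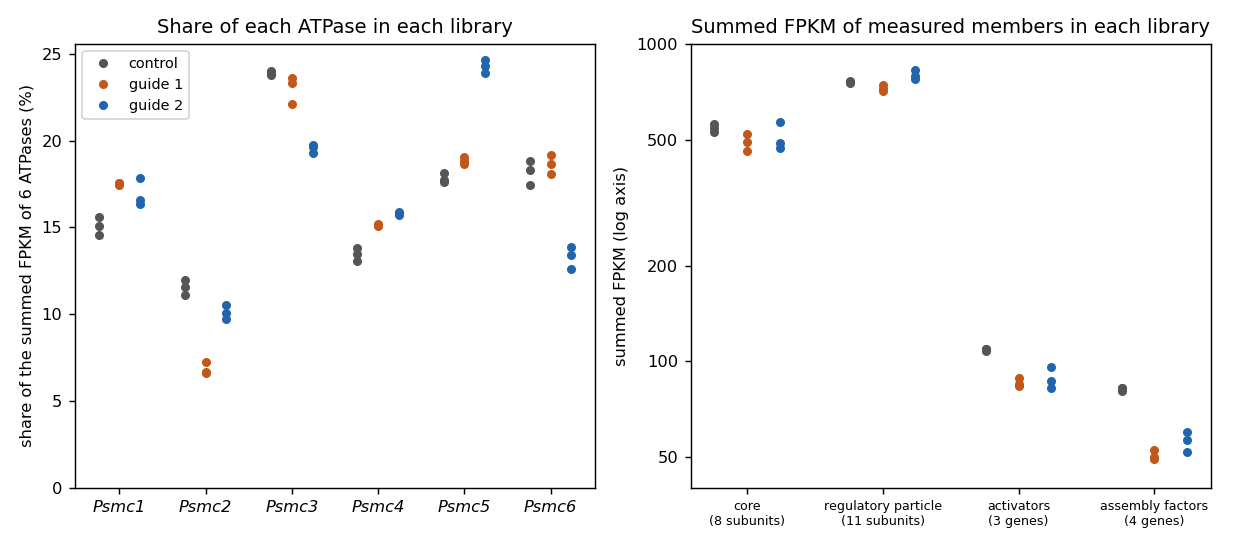
Left: share of each ATPase in the summed FPKM of the 6, in percent, 1 point per library, with the control in grey, guide 1 in orange and guide 2 in blue. Right: summed FPKM of the measured members of each subcomplex on a log axis, where assembly factors and activators are lower in all 6 knockout libraries than in the controls.

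Among the 5 measured non-ATPase subunits of the regulatory particle, 4 fell and 1 rose for the mean of both knockouts. Over all tested genes 43.3% fell and 37.8% rose in that comparison. Psmd2, or Rpn1, the large scaffold that docks ubiquitin carriers, was the riser. It stood at 137.5, 133.5 and 133 FPKM in control libraries, 154, 153 and 153 with guide 1 and 161, 165 and 161 with guide 2. All 6 knockout libraries exceeded all controls, and within groups the values were close. The log2 fold change was 0.19 with guide 1 (SE 0.0352, limma adjusted p = 0.000779) and 0.27 with guide 2 (limma adjusted p = 7.26e-05). Psmd6, or Rpn7, a subunit of the lid, was at 57.2, 57.8 and 58.2 FPKM in control libraries, 44.4, 45.2 and 44.9 with guide 1 and 50.8, 49.2 and 47.6 with guide 2. All 6 knockout libraries lay below all controls, with log2 fold changes of -0.36 and -0.23 (limma adjusted p = 1.71e-05 and 0.000537). Psmd14, or Rpn11, the deubiquitinase of the lid, fell from 57.6 ± 2.27 FPKM to 49.6 ± 1.355 and 50.7 ± 1.82 (log2 -0.21 and -0.18, limma adjusted p = 0.00232 and 0.00611). Psmd1, or Rpn2, the other large scaffold, and Psmd13, or Rpn9, fell with guide 1 by 0.22 and 0.22 log2 units. With guide 2 they stood at -0.11 (limma adjusted p = 0.058) and -0.04 (limma adjusted p = 0.472). Exons of Psmd1 overlap Gm21972 on the same strand in the GENCODE annotation, so its reads may be divided with that gene. Over the 11 measured subunits of the regulatory particle the summed FPKM was 760.1 ± 6.26 in control libraries, 725 ± 16.8 with guide 1, below all controls, and 799 ± 26.15 with guide 2, above all controls. After trimmed mean rescaling guide 1 stood at 755.7, 747.5 and 715 FPKM against 745.9, 749 and 750.5 in control libraries and overlapped them, while guide 2 still lay above.

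The 3 largest decreases for the mean of both knockouts were in assembly factors: -0.93 log2 units for Psmg2, -0.62 for Psmd9 and -0.49 for Pomp. All 4 fell for the mean of both knockouts and with guide 2, and 3 of 4 fell with guide 1. The matching shares called lower over all tested genes were 43.3%, 33.5% and 37.9%. Psmg2, also named PAC2, pairs with PSMG1 to build the alpha ring. It stood at 29.2, 28.75 and 29.5 FPKM in control libraries, 12.4, 11.8 and 12.2 with guide 1 and 17.8, 19.5 and 16.8 with guide 2, so the 3 groups did not overlap. The log2 fold change was -1.20 with guide 1 and -0.66 with guide 2 (SE 0.0553 for each, limma adjusted p = 2.38e-08 and 2.41e-06). Psmg2 with guide 1 was the one change of a member beyond 1 log2 unit. Pomp, the maturation factor on which the beta ring forms, was at 24.7, 25.6 and 27.6 FPKM in control libraries, 17.6, 16.2 and 16.3 with guide 1 and 21.8, 18.8 and 18.8 with guide 2. Every knockout library lay below every control, with log2 fold changes of -0.61 and -0.38 (limma adjusted p = 1.91e-05 and 0.000692).

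Psmd9, or p27, is a chaperone of the ATPase ring that leaves before the cap is complete. Its FPKM was 8.92, 9.74 and 9.19 in control libraries, 4.96, 5.03 and 5.05 with guide 1 and 7.33, 6.13 and 5.93 with guide 2. The groups did not overlap, and it fell by 0.77 log2 units with guide 1 and 0.47 with guide 2 (limma adjusted p = 4.24e-06 and 0.000213). Psmd10, or gankyrin, a chaperone of the same ring that is also known as an oncoprotein binding the retinoblastoma protein, behaved differently. It was at 17.6, 18.3 and 16.04 FPKM in control libraries, 17.45, 16.3 and 16.5 with guide 1 and 13.0, 11.9 and 10.5 with guide 2. Guide 1 overlapped the control and guide 2 lay below both, with log2 differences of -0.04 (95% interval -0.21 to 0.12) and -0.52 (limma adjusted p = 0.000161). The 4 assembly factors summed to 80.4, 82.4 and 82.4 FPKM in the control libraries, 52.4, 49.3 and 50.02 with guide 1 and 60.0, 56.4 and 52.0 with guide 2.

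All 3 measured activators fell for the mean of both knockouts, beside 43.3% of all tested genes. Psme1 and Psme2 encode both subunits of PA28, a ring induced by interferon that opens the core without ubiquitin. Psme2 stood at 50.4, 48.3 and 49.8 FPKM in control libraries, 35.6, 36.1 and 32.6 with guide 1 and 43.7, 37.6 and 33.4 with guide 2. Psme1 was at 44.6, 44.3 and 45.1 FPKM in control libraries, 39.55, 35.3 and 35.9 with guide 1 and 41.1, 37.65 and 36.8 with guide 2. For both genes all knockout libraries lay below all controls. Psme2 fell by 0.50 and 0.37 log2 units with guide 1 and guide 2 (limma adjusted p = 0.000351 and 0.00271), and Psme1 by 0.27 and 0.21 (adjusted p = 0.00164 and 0.00788). The differences between the knockouts were 0.13 (95% interval -0.06 to 0.31) and 0.06 (-0.07 to 0.19), and neither passed, but without guide 2 replicate 3 that of Psme2 was 0.22 and passed (limma adjusted p = 0.0309). Both genes lie on chromosome 14. Psme4, or PA200, a nuclear activator, was at 14.8, 14.95 and 14.6 FPKM in control libraries, 13.3, 13.4 and 14.9 with guide 1 and 10.95, 11.55 and 12.01 with guide 2. It fell with guide 2 (log2 -0.34, limma adjusted p = 0.00038), while with guide 1 the value was -0.09 (limma adjusted p = 0.176), and -0.14 without guide 1 replicate 3 (adjusted p = 0.046).

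Psmf1, or PI31, named for its inhibition of the core in vitro, stood at 6.21, 5.7 and 6.51 FPKM in control libraries, 6.23, 5.47 and 5.67 with guide 1 and 5.64, 5.58 and 5.61 with guide 2. Its log2 differences of -0.07 and -0.11 did not pass, with 95% intervals of -0.21 to 0.07 and -0.25 to 0.03. Psme2b is a close copy of Psme2: over 794 aligned bases of their GENCODE transcripts, 99.4% were identical, so reads may be divided between them, and exons of Psme2b also overlap 9930111J21Rik1 on the same strand. It stood at 26.6, 34.5 and 24.45 FPKM in control libraries, 24.3, 20.4 and 18.4 with guide 1 and 19.3, 22.2 and 15.9 with guide 2, with the widest spread within groups of all members. Its log2 values of -0.42 and -0.55 are uncertain for that reason. The guide 1 call (limma adjusted p = 0.0282) was lost without control replicate 2 (-0.28, adjusted p = 0.11) or guide 1 replicate 2 (-0.40, adjusted p = 0.0707) or 3 (-0.33, adjusted p = 0.102). This call was also lost under quantile normalization (-0.375, limma adjusted p = 0.0508) and trimmed mean rescaling (-0.366, adjusted p = 0.054). With no filter on low values it was lost as well (-0.416, limma adjusted p = 0.0885).

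Between the knockouts, a comparison in which the control cancels, 10 members were higher with guide 2 and 4 lower, where 54.5% of all tested genes were called, 31.2% higher and 23.3% lower. Without overlap of their libraries were 16 members, beside 61.5% of all genes. Called members made up 50% of the members, and their median difference was 0.10 log2 units beside 0.04 over all tested genes. The largest differences were in Psmc2 (0.72, SE 0.0463, limma adjusted p = 6.48e-07), Psmb1 (0.70, adjusted p = 3.16e-06), Psmc5 (0.53, adjusted p = 1.29e-05) and Psmg2 (0.53, adjusted p = 1.95e-05), all higher with guide 2. Lower with guide 2 were Psmd10 (-0.47, limma adjusted p = 0.000406), Psmc6 (-0.31), Psma7 (-0.27, adjusted p = 0.00726) and Psme4 (-0.25, adjusted p = 0.00363). Of the 9 members lower with each guide, 4 also differed in size between the knockouts: Psmg2, Psmd9, Pomp and Psmd6. Psmd9 and Pomp were higher with guide 2 by 0.31 and 0.23 log2 units, and Psmd6 by 0.13. The Pomp difference did not pass without guide 1 replicate 2 (0.21, limma adjusted p = 0.0535). That of Psmd6 did not pass without guide 1 replicate 1 (0.12, limma adjusted p = 0.0544) or guide 2 replicate 2 (0.13, adjusted p = 0.0538). The Psmd6 difference was also lost under quantile normalization (0.096, limma adjusted p = 0.0591) and trimmed mean rescaling (0.095, adjusted p = 0.0928). The difference of Psmb2, 0.14 (limma adjusted p = 0.0413), was lost in 12 of 18 alternatives, and without guide 2 replicate 1 it was 0.085 (adjusted p = 0.114).

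Both measured inducible subunits, which the rule leaves out, fell with each guide, as did 26.2% of all tested genes. Psmb8, the inducible counterpart of Psmb5, stood at 13.9, 13.6 and 14.2 FPKM in control libraries, 1.1, 1.29 and 1.11 with guide 1 and 7.72, 7.15 and 7.66 with guide 2, and Psmb10, the counterpart of Psmb7, at 27.1 ± 2.26, 15.5 ± 0.704 and 20.5 ± 3.22. Their log2 fold changes were -2.78 and -0.81 for Psmb8 (limma adjusted p = 1.01e-10 and 6.69e-07) and -0.76 and -0.39 for Psmb10 (adjusted p = 5.02e-05 and 0.00507). Psmb9 was not analysed here. As a percent of Psmb5 in the same library, Psmb8 was 9.49, 9.13 and 8.97 in control libraries, 0.708, 0.871 and 0.8305 with guide 1 and 4.66, 5.39 and 5.96 with guide 2, and the groups did not overlap. Psmb10 was 52.0 ± 3.04% of Psmb7 in control libraries, 38.7 ± 1.95% with guide 1 and 45.8 ± 1.52% with guide 2. The difference between each inducible gene and its counterpart was not tested.

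Genes that work beside the proteasome were read from lists. Of 11 tested proteasome-associated factors 8 fell and 2 rose for the mean of both knockouts (median log2 -0.24). With guide 1 alone 8 fell and 1 rose (median -0.29), beside 37.9% and 30.2% of all tested genes. With guide 2 alone 4 fell and 2 rose (median -0.10), beside 33.5% and 31.9%. Txnl1, a thioredoxin-like protein of the regulatory particle, fell from 41.1 ± 0.992 FPKM in control libraries to 21.3 ± 1.36 under guide 1 and 20.35 ± 0.417 under guide 2, and Ecpas, a scaffold that tethers cap and core, from 12.4 ± 0.2885 to 5.95 ± 0.1705 and 7.92 ± 0.451. Adrm1, or Rpn13, a ubiquitin receptor of the cap that the rule's letters miss, stood at 33.3 ± 1.04, 35.7 ± 0.487 and 34.0 ± 1.67 FPKM and did not pass (limma adjusted p = 0.162). Of 6 tested genes of transcriptional control 3 fell and 1 rose. The largest change was in Ngly1, the glycanase needed to activate NFE2L1, which fell from 5.195 ± 0.378 FPKM to 2.395 ± 0.08695 and 2.93 ± 0.0455 (log2 -0.87 and -0.66, limma adjusted p = 6.22e-07 and 6.3e-06). Keap1, which marks NFE2L2 for degradation, fell by 0.46 and 0.57 log2 units, and Ddi2, the protease that cleaves NFE2L1, did not pass (limma adjusted p = 0.374). Nfe2l1 and Nfe2l2 were not analysed here. The riser, Nfya of NF-Y, changed by 0.82 and 0.18 log2 units with guide 1 and guide 2 (limma adjusted p = 2.44e-06 and 0.0445). Nfyb, also of NF-Y, changed by -0.41 and -0.01 (adjusted p = 0.000122 and 0.889), and Nfyc passed with neither guide. Akirin2, which carries proteasomes into the nucleus, fell from 51.25 ± 1.225 FPKM to 47.1 ± 1.385 and 37.6 ± 1.66.

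Of 7 tested genes of the p97 segregase and its adaptors 3 fell and 2 rose. Vcp, p97 itself, fell from 173 ± 8.99 FPKM to 133.5 ± 1.67 and 112 ± 4.62 under guide 1 and guide 2, while its cofactor Ufd1 rose from 13.1 ± 0.0914 to 20.3 ± 0.847 and 16.1 ± 0.443. Rps27a, which encodes ubiquitin fused to a ribosomal protein, and Uba6, an enzyme that activates ubiquitin, changed by -0.45 and -0.34 log2 units for the mean (limma adjusted p = 0.000224 and 0.00109). The COP9 signalosome, a complex related in build to the lid, had 6 of 7 genes lower and 1 higher (median -0.30), led by Cops4 (-0.91 with guide 1 and -0.38 with guide 2) and Cops6 (-0.76 and -0.39). The chaperonin, another ring complex, had 3 of 4 genes lower and 1 higher, with Cct3 rising by 0.18 and 0.95 log2 units and Cct6a falling by 0.60 and 0.19. All these counts for the mean of both knockouts stand beside 43.3% of all tested genes called lower and 37.8% called higher.

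Genes that respond to handling also differed between the groups. All 4 tested heat shock genes rose for the mean of both knockouts, with summed FPKM of 236 to 245 in control libraries, 284 to 294 with guide 1 and 326 to 355 with guide 2. Hspa1b, an inducible HSP70, rose from 7.87 ± 1.1 FPKM to 16.35 ± 1.48 and 64.2 ± 6.2, and Hspa1a from 4.56 ± 0.292 to 7.56 ± 0.604 and 20.2 ± 1.53. All 6 tested immediate early genes rose, with sums over 9 genes of 98.5 to 108 FPKM in control libraries, 231 to 243 with guide 1 and 192 to 206 with guide 2, led by Egr1 (1.18 and 2.21 log2 units) and Nr4a1 (1.61 and 1.68). Both counts stand beside 37.8% of all tested genes called higher for the mean. The part of the heat shock and immediate early genes in the differences among proteasome genes was not tested.

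In level, the members spanned a wide range. On the FPKM scale, which is per length, the control means ran from 151 ± 6.61 for Psmb5, 135 ± 2.43 for Psmd2 and 102.5 ± 0.883 for Psmc3 at the top down to 14.8 ± 0.157 for Psme4, 9.28 ± 0.416 for Psmd9 and 6.14 ± 0.406 for Psmf1. Next to each other in that order, Psmc6 and Psmc5 at 78.1 ± 2.91 and 76.5 ± 0.969 FPKM, and Psmb7 and Psmc2 at 52.0 ± 1.44 and 49.5 ± 1.84, overlapped over the control libraries, whereas Psmd2 and Psmc3 did not. In both knockouts Psmd2 had the highest mean, 153.5 ± 0.522 and 162 ± 1.9 FPKM, though its libraries overlapped those of Psmb5. Psmc5 came next after these with guide 2, at 112 ± 7.42 FPKM. Psme4, Psmd9 and Psmf1 are not subunits of the core or regulatory particle. Among the measured subunits of these, Psma3 had the lowest control mean, 24.8 ± 1.565 FPKM. The ratio of the highest to the lowest of the 8 core subunits was 6.1 ± 0.292 in control libraries, 6.07 ± 0.237 with guide 1 and 6.555 ± 0.599 with guide 2. For the 5 non-ATPase subunits it was 3.35 ± 0.0515, 4.51 ± 0.108 and 4.32 ± 0.0688, larger in all 6 knockout libraries than in any control.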

How the data were processed

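Polyadenylated RNA was read from 9 paired-end libraries of ROC6 cells, per the labels' protocols, and sample titles gave group and replicate. The deposited table holds FPKM by gene and library, per the file headers. In the submitters' processing notes the tools are cutadapt, FastQC, HISAT2 and StringTie, whose settings, build and annotation were not given in the sources used here. No count model could be applied to FPKM.

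Of 15620 rows, 174 sharing 62 symbols were left out, and of the 15446 others 8481 averaged under 1 FPKM. The remaining 6965 genes were fitted as log2(FPKM + 1), which understates changes of low genes, in one limma 3.58.1 model (R 4.3.3) of all libraries, its prior variance following the mean. P-values were adjusted over all 6965 genes (Benjamini-Hochberg), calls are at an adjusted p under 0.05, and intervals are 95% intervals of the fit. The fit was also tested on simulated data with 200 of 6965 genes changed. Changes of 0.2 log2 units were recovered in 0% of these genes with each guide and 15.5% for the mean. At 0.5 log2 units the shares were 87.5% with guide 1, 87% with guide 2 and 90.5% for the mean. Far more genes were called in the real data, so these rates do not carry over to it. One gene of the ubiquitin list is not reported here. The members and lists were chosen with earlier results of these data known. Values in every library were planned for the catalytic subunits, the activators, the 2 largest changes of each role and the 3 largest differences between knockouts in each direction. Of every other list the 2 largest called genes are named. Perp, Krt16, Krt17, Col1a2, Lyz2, Adrm1, Ddi2, Nfya, Nfyb, Nfyc and Akirin2 were added after their values were seen. Alternatives tried were a pseudocount of 0.1, filters of 0 and 5 FPKM, quantile normalization, rescaling by a mean trimmed by 30% at either end, the replicate number as a block, a constant prior, fits to the compared libraries alone, p-values raised by a factor of 1.5 for the shared side of the rows, both knockouts as 1 group, and omission of single libraries.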

Additional observations from a re-analysis of the deposited data

Results flagged for a closer look

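Of the 28 members, 14 differed between the knockouts by the test of the difference itself (limma, guide 2 minus guide 1, adjusted over 6965 genes), where 54.5% of all tested genes did. On the log2 scale Psmc2 differed by 0.72, Psmb1 by 0.70, Psmc5 by 0.53, Psmg2 by 0.53, Psmd9 by 0.31, Psmc4 by 0.23, Pomp by 0.23, Psmd13 by 0.18, Psmb2 by 0.14 and Psmd6 by 0.13, all higher with guide 2. Lower with guide 2 were Psmd10 (-0.47), Psmc6 (-0.31), Psma7 (-0.27) and Psme4 (-0.25). Each knockout appears to be 1 clone, so the guide and the clone cannot be told apart.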

How the results depend on the processing

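Of the 71 calls of members over the 4 comparisons, 61 were made in every alternative and 10 were lost in at least 1, leaving aside the fit of all 6 knockout libraries as 1 group, and none changed sign. Members lower for the mean of both knockouts numbered 16 to 21 in those alternatives and 11 with the 6 knockout libraries as 1 group, against 19, and members higher numbered 4 and 2. In that fit, where the difference between knockouts counts as spread, 3642 of all tested genes passed, against 5649, and 10 members lost the call. With guide 1, members called higher numbered 3 under quantile normalization, 3 under trimmed mean rescaling, 2 with only the libraries compared, and 1 to 2 when each library was left out, against 1, and the higher share of called members was 18.8% and 20% under the first pair, against 6.25%. Psma7 and Psmb2 for the mean of both knockouts each lost the call in 12 of 17 alternatives, with adjusted p up to 0.141 and 0.157, and Psmd13 lost it without control replicate 1 (-0.11, limma adjusted p = 0.0739), under quantile normalization (-0.083, adjusted p = 0.0569) and under trimmed mean rescaling (-0.10, adjusted p = 0.0705). Rescaling moved the summed FPKM of the control from 760.1 to 748.4 for the regulatory particle and from 108.9 to 107.3 for the activators. Signs turned only in values that were not called: under quantile normalization Psma2 0.040, Psma7 0.035, Psmb5 0.046, Psmc6 0.013 and Psmd10 0.001 for guide 1 against control, then Psma6 -0.004 and Psmd14 -0.013 for guide 2 against guide 1, then Psma2 0.005 and Psmb5 0.009 for mean of both knockouts against control, and under trimmed mean rescaling Psma2 0.026, Psma3 0.002, Psma7 0.038, Psmc6 0.012 and Psmd10 0.004 for guide 1 against control; Psma6 -0.017 and Psmd14 -0.005 for guide 2 against guide 1. When each library was left out, log2 values of uncalled genes ran as follows: Psma2 from -0.074 to 0.026 (guide 1 against control), Psma2 from -0.15 to 0.001 (guide 2 against control), Psma2 from -0.126 to 0.025 (guide 2 against guide 1), Psma6 from -0.028 to 0.104 (guide 1 against control), Psma6 from -0.009 to 0.114 (guide 2 against control), Psma6 from -0.048 to 0.083 (guide 2 against guide 1), Psma6 from -0.003 to 0.08 (mean of both knockouts against control), Psma7 from -0.051 to 0.019 (guide 1 against control), Psmb5 from -0.105 to 0.004 (guide 1 against control), Psmb5 from -0.154 to 0.028 (guide 2 against guide 1), Psmc5 from -0.019 to 0.032 (guide 1 against control), Psmf1 from -0.071 to 0.008 (guide 2 against guide 1). The cause of these changes was not tested. Replicate numbers were not taken as pairs: deviations of same-numbered libraries from their group means correlated across genes at -0.107 to 0.0556 between a knockout and the control, and at 0.245, 0.0219 and 0.21 between the knockouts, where 5 of 6 libraries correlated best with their own number, a hint from the data and not the design. With a replicate block 18 members were lower and 4 higher for the mean, 15 and 1 with guide 1, 15 and 4 with guide 2, and 10 higher and 4 lower between knockouts, with 1 call lost, Psma7 for the mean, and 1 gained, Psmb7 with guide 2.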
